A study of Homo sapiens with 6 samples.

Results

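Enzymes of nucleotide synthesis were examined in HT-29 cells, an established line from a human colon adenocarcinoma, and in sublines selected with a drug. The 9 genes were chosen by name for their place in deoxynucleotide, pyrimidine and purine synthesis (TYMS, RRM1, RRM2, TK1, DUT, CAD, UMPS, PPAT and GART). The choice was made with earlier results of these data known. All 9 were found on the array, among 19775 genes with a probe set of their own, and all 9 were among the 10370 genes kept after a filter on low values. Total RNA was hybridised from 3 variants, BR100, BR200 and wild type, on 2 arrays per variant, 1 labelled from 100 ng with the 3' IVT Express kit and 1 from 3 ug with the One-Cycle kit. Per the labels, cells were kept in bortezomib, a proteasome inhibitor, at doses raised from 20 to 300 nM over 7 months, and isolates were cloned by limiting dilution at 100 or 300 nM for 4 more months. The labels attach this history to every sample, wild type included, do not give the cloning dose of BR200, and do not say whether drug was present at harvest. Whether both arrays of a variant share a culture or an RNA extract is not stated, so p-values measure only the spread between these arrays, which may be technical.

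A dividing cell needs the 4 DNA precursors in balance, and the enzymes studied here sit at the control points of their supply. Ribonucleotide reductase turns ribonucleotides into deoxynucleotides, thymidylate synthase adds the methyl group that makes thymidylate, and the multi-step purine and pyrimidine pathways build the ribonucleotides themselves. Genes of the deoxynucleotide steps are known for high expression in S phase, and thymidylate synthase is the target of fluorouracil, a drug used in colon cancer.

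Of the 9 genes, 8 were higher in BR100 than in wild type and 8 were higher in BR200 than in wild type, by limma (genes called at an adjusted p under 0.05, Benjamini-Hochberg, with every kept gene in the adjustment). PPAT was the gene that did not pass, in both comparisons, and that outcome depends on how its probe sets are used, as given with its values. These counts stand against a large background, since 36.7% of all genes kept were called higher and 31.8% lower in BR100 (68.5% in either direction), and 35.4% higher and 31.2% lower in BR200 (66.5%). The median log2 change of the 9 genes was 1.76 in BR100 and 1.50 in BR200, where the median of all genes was 0.040 and 0.038. By size, 7 of the 9 genes rose by at least 1 log2 unit in each comparison. Of all genes kept, 13.8% rose by that much in BR100 and 13.1% in BR200. Because the 9 genes were chosen with earlier results of these data known, this contrast with all genes is a description only. Both comparisons use the same 2 wild type arrays, so they are not independent of each other. In RNA from whole cultures, more cells in S phase and more transcript per cell cannot be told apart.

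**Figure D1:**
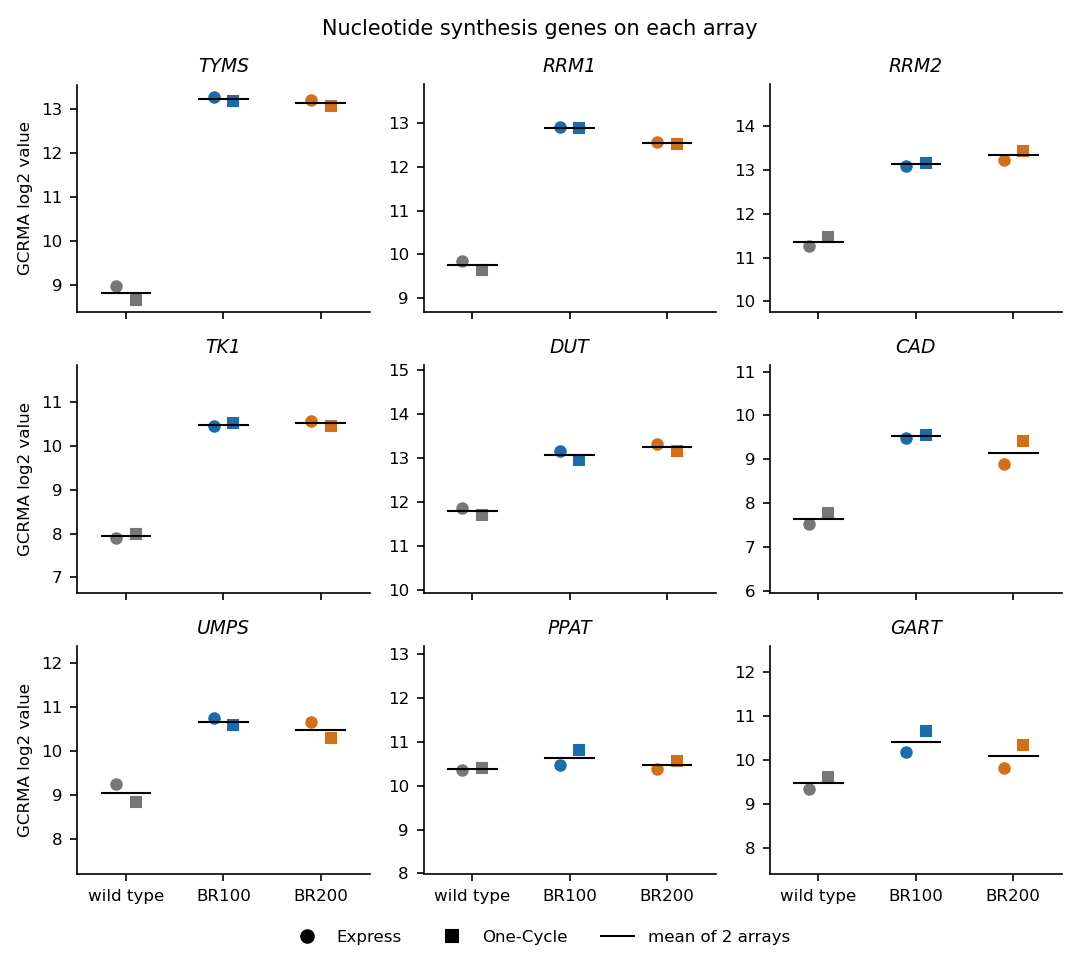
GCRMA log2 value of each gene's probe set on every array, by variant, with circles for Express and squares for One-Cycle arrays and a line at the mean of 2 arrays; each panel spans the same number of log2 units, and heights are not comparable between genes. In the PPAT panel the lowest resistant point, 10.38, lies between the wild type values of 10.36 and 10.40.

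TYMS encodes thymidylate synthase, which makes dTMP from dUMP. Its log2 values were 8.97 (Express) and 8.66 (One-Cycle) in wild type, 13.28 and 13.20 in BR100, and 13.22 and 13.08 in BR200. All 4 resistant arrays stood more than 4 log2 units above both wild type arrays. TYMS rose 21.4-fold in BR100 (log2 change 4.42, SE 0.0855, limma adjusted p = 6.99e-05) and 20.2-fold in BR200 (4.34, SE 0.0855, adjusted p = 8.06e-05). A change of that size exceeded those of 99.8% of the genes kept in either comparison. The promoter is shown because TYMS changed most of the 9 genes and because its window holds a word of the kind bound by E2F factors, which drive S phase genes. The stretch runs from 150 bases to 1 base before the start site annotated by RefSeq (GRCh38.p14, chr18:657503-657652, plus strand), with the E2F word in capitals:
TYMS: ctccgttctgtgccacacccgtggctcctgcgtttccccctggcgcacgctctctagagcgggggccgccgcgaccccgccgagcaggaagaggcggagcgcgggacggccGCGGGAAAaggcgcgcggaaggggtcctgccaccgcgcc

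RRM1 and RRM2 encode the large catalytic subunit and the small radical-bearing subunit of ribonucleotide reductase. RRM1 read 9.85 and 9.65 in wild type (Express, then One-Cycle, here and below), 12.90 and 12.89 in BR100, and 12.56 and 12.51 in BR200. It rose 8.85-fold in BR100 (log2 change 3.15, SE 0.0792, limma adjusted p = 8.32e-05) and 6.89-fold in BR200 (2.79, SE 0.0792, adjusted p = 0.000132). By mean, RRM1 was thus highest in BR100, intermediate in BR200 and lowest in wild type. Its difference between BR200 and BR100 did not pass (limma adjusted p = 0.0619). RRM2 read 11.26 and 11.47 in wild type, 13.10 and 13.16 in BR100, and 13.23 and 13.44 in BR200. It rose 3.40-fold in BR100 (1.76, SE 0.0743, adjusted p = 0.000187) and 3.92-fold in BR200 (1.97, SE 0.0743, adjusted p = 0.000186). A second RRM2 probe set, 209773_s_at, gave larger changes of 3.07 and 2.80, so the size for RRM2 depends on the probe set. RRM2B, the other small subunit, which p53 induces, fell instead. It read 8.60 and 8.44 in wild type, 7.75 and 7.72 in BR100, and 7.82 and 7.64 in BR200 (log2 change −0.79 in each comparison, SE 0.0743, adjusted p = 0.00116 and 0.00125). The RRM2 promoter is shown for a repeated element, 3 CCAAT boxes each followed by the bases gggaaggg (GRCh38.p14, chr2:10122599-10122688, plus strand, 140 to 51 bases before the first start site listed, CCAAT boxes in capitals):
RRM2: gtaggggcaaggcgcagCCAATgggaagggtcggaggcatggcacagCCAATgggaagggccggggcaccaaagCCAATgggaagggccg

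TK1, the cytosolic thymidine kinase that salvages thymidine, and DUT, the dUTPase that removes dUTP and yields dUMP for TYMS, were also higher. TK1 read 7.91 and 8.0 in wild type, 10.46 and 10.52 in BR100, and 10.57 and 10.46 in BR200. The resistant arrays lay between 10.46 and 10.57, and TK1 rose 5.79-fold in BR100 (log2 change 2.53, SE 0.0835, limma adjusted p = 0.000127) and 5.90-fold in BR200 (2.56, SE 0.0835, adjusted p = 0.000155). DUT read 11.87 and 11.70 in wild type, 13.17 and 12.97 in BR100, and 13.33 and 13.17 in BR200. Its change was 2.42-fold in BR100 (1.28, SE 0.0644, adjusted p = 0.00026) and 2.75-fold in BR200 (1.46, SE 0.0644, adjusted p = 0.000226). That DUT probe set carries the suffix _x_at, which marks probes that can match other transcripts, and the DUT probe set without such a suffix, 208955_at, gave larger changes of 2.21 and 2.31. All 5 deoxynucleotide genes therefore rose in both resistant variants, with median log2 changes of 2.53 and 2.56. One of the DUT start sites holds a pair of E2F words close before it and is shown for comparison with TYMS (GRCh38.p14, chr15:48332117-48332196, plus strand, 80 bases to 1 base before that site, E2F words in capitals):
DUT: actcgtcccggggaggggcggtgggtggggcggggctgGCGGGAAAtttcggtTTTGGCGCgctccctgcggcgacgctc

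In pyrimidine synthesis, CAD, the multi-domain enzyme of the first steps, and UMPS, the enzyme of the last steps to UMP, both rose. CAD read 7.53 and 7.76 in wild type, 9.49 and 9.56 in BR100, and 8.88 and 9.41 in BR200. The gain was 3.67-fold in BR100 (log2 change 1.88, SE 0.128, limma adjusted p = 0.000499) and 2.83-fold in BR200 (1.50, SE 0.128, adjusted p = 0.000963). CAD had the largest error of the 9 genes, and its BR200 arrays differed by more (SD 0.37, n = 2) than those of BR100 (SD 0.05) or wild type (SD 0.16). UMPS read 9.24 and 8.84 in wild type, 10.74 and 10.58 in BR100, and 10.66 and 10.30 in BR200. The Express arrays were higher than the One-Cycle arrays in every variant, and the change was 3.08-fold in BR100 (1.62, SE 0.0886, adjusted p = 0.000305) and 2.72-fold in BR200 (1.44, SE 0.0886, adjusted p = 0.000436). A second UMPS probe set, 202706_s_at, gave 1.56 and 1.52.

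**Figure D2:**
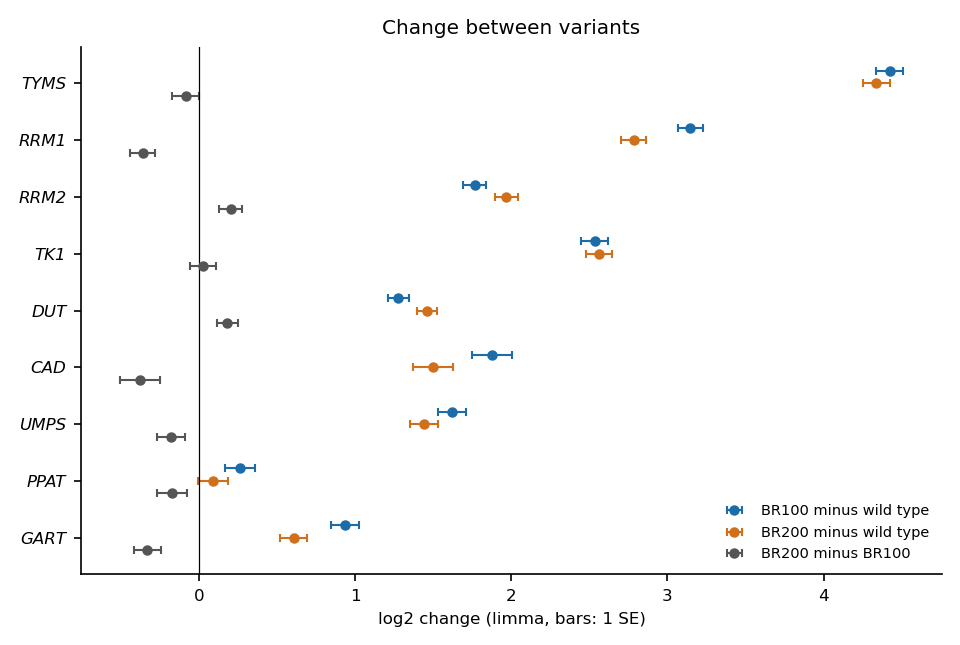
Log2 change of the 9 genes (horizontal axis) in the 3 comparisons of variants, with bars of 1 standard error from limma. Changes against wild type run from 0.09 (PPAT, BR200) to 4.42 (TYMS, BR100), and those between the resistant variants from −0.38 to 0.20.

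The purine genes changed least. PPAT encodes the amidotransferase of the first committed step of purine synthesis. It read 10.36 and 10.40 in wild type, 10.48 and 10.81 in BR100, and 10.38 and 10.56 in BR200. The lowest BR200 array lay between the wild type arrays, and neither change passed (log2 change 0.26, SE 0.0957, limma adjusted p = 0.0677 in BR100, and 0.09, SE 0.0957, adjusted p = 0.452 in BR200). The 95% intervals, which are not adjusted for the number of genes, ran from 0.00 to 0.52 and from −0.17 to 0.35, so a rise of up to 0.52 in BR100 was not excluded by the fit. Leaving out 1 array at a time moved the change to between 0.15 and 0.37 in BR100 and, around 0, to between −0.020 and 0.20 in BR200, none of them past the threshold. PPAT passed in BR100 with an intensity trend in eBayes, and in both comparisons with its probe sets averaged (0.48 and 0.35). It also passed with 235833_at in place of the brightest one. That probe set read 4.45 and 3.87 in wild type, so it met the filter on low values only with the resistant arrays. Its call therefore supports nothing, and the average includes it. GART carries 3 later activities of the same pathway on a single polypeptide. Its values were 9.34 and 9.62 in wild type, 10.18 and 10.65 in BR100, and 9.82 and 10.35 in BR200. One-Cycle arrays were higher in every variant, and within each kit wild type was lowest and BR100 highest. GART rose 1.91-fold in BR100 (0.94, SE 0.0885, adjusted p = 0.00117) and 1.52-fold in BR200 (0.61, SE 0.0885, adjusted p = 0.00453). The call rests on the choice of probe set. With the GART probe sets averaged, the change was 0.033 in BR100 and −0.09 in BR200, and neither passed. Without the block for kit the BR200 call was lost.

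PPAT and GART each start beside a gene that runs the other way. PPAT lies 136 bases from the start of PAICS, which encodes the enzyme of later purine steps, and GART lies 145 bases from the start of SON, a splicing factor gene. PAICS read 11.56 and 11.83 in wild type, 12.78 and 13.21 in BR100, and 12.69 and 12.97 in BR200. The resistant arrays did not overlap with wild type, and PAICS rose by 1.29 in BR100 (SE 0.0774, limma adjusted p = 0.000372) and by 1.13 in BR200 (SE 0.0774, adjusted p = 0.000568). The change of PPAT was lower than that of PAICS by 1.03 in BR100 and 1.04 in BR200, and it was lower on both kits (−1.10 and −0.97 in BR100, −1.10 and −0.98 in BR200). SON did not pass (0.22 in BR100, adjusted p = 0.112, and 0.07 in BR200, adjusted p = 0.558), and GART stood above it by 0.71 and 0.53. TK1 likewise starts 157 bases from AFMID, a kynurenine pathway gene whose values did not exceed 5.55 and whose changes of 0.06 and 0.76 did not pass (adjusted p = 0.877 and 0.0779). These differences between neighbours were not tested. The bases between the PPAT and PAICS starts are shown because both genes begin at their ends (GRCh38.p14, chr4:56435616-56435751, minus strand, reading toward PPAT, GC boxes in capitals), and part of the stretch between GART and SON is shown for its CCAAT boxes (chr21:33542933-33543032, minus strand, 140 to 41 bases before the first GART start site listed, CCAAT or its reverse ATTGG in capitals):
PPAT: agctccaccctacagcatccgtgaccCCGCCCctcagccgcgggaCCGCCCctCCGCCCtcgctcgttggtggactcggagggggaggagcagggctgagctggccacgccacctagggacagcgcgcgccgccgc
GART: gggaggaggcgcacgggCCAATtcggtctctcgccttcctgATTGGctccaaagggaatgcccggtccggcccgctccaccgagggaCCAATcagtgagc

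Motif words were looked for on both strands in 300-base windows (250 before to 50 after a start site) that RefSeq gives for the 9 genes, 16 windows in all. The E2F words searched were TTTCGCGC, TTTGGCGC, TTTCCCGC and TTTGCCGC. They were found for TYMS, DUT and GART, 3 of 9 genes, and 3.99% of all 27305 genes with a window hold one. A match in any window of a gene counts, and all 27305 genes have 35116 windows, fewer per gene than the 9 genes have. The DUT words are in 1 of its 4 windows, and the GART word lies 245 bases before the third start site listed. CCAAT was found for 5 of the 9 genes (39.7% of all genes), CACGTG, the E-box bound by MYC, for PPAT alone (8.77%), and the GC box GGGCGG for 7 (48.3%). The GC box and the E2F words can overlap in part. RRM1, the gene with the second largest change, held a CCAAT and a GC box and none of the E2F words in its window, and UMPS held none of the 4 motifs. A match here is a description of letters, and no binding was measured.

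**Figure D3:**
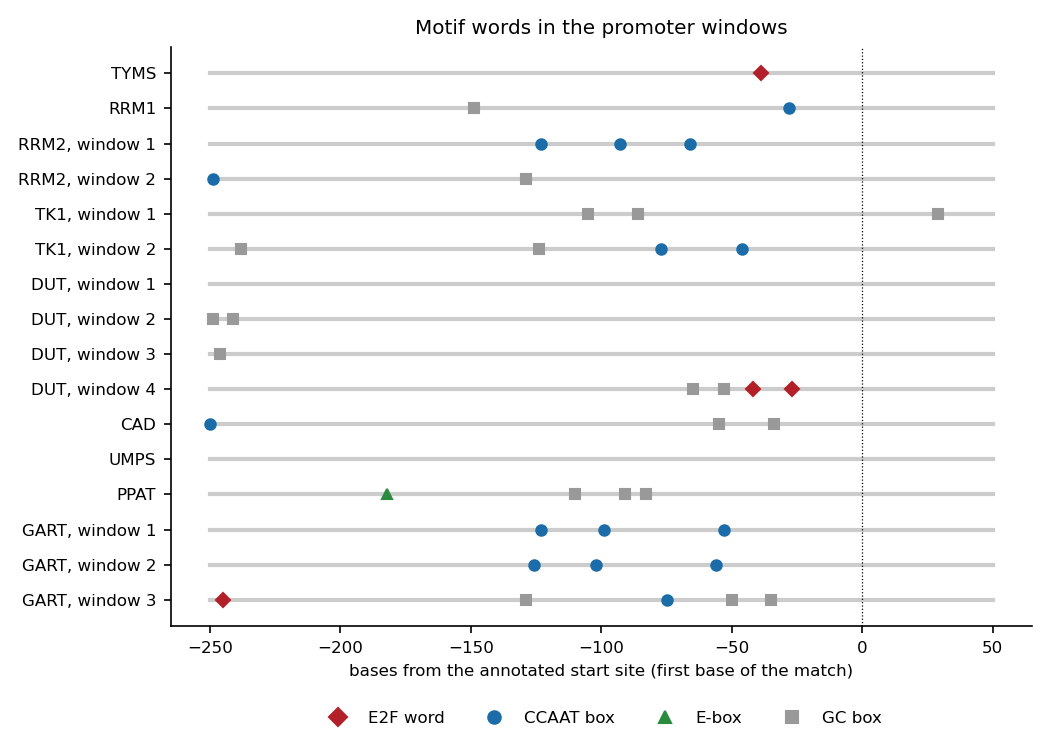
Positions of motif matches (horizontal axis, bases from the annotated start site) in the 16 promoter windows of the 9 genes, with a row for each window. The E2F words of TYMS and of the fourth DUT window lie 39, 42 and 27 bases before the start site, and RRM2 has CCAAT boxes 123, 93 and 66 bases before its first start site.

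The resistant variants were then compared with each other. None of the 9 genes passed between BR200 and BR100 with limma, where 10.6% of all genes kept were called (6.39% higher and 4.23% lower in BR200). At an unadjusted p under 0.05 there were 5 of the 9 genes, and 3259 of all 10370 genes kept. The differences were small, from −0.38 for CAD to 0.20 for RRM2. RRM1 was lower in BR200 by 0.36 (SE 0.0792, 95% interval −0.57 to −0.15, limma adjusted p = 0.0619), and GART by 0.33 (SE 0.0885, interval −0.57 to −0.09, adjusted p = 0.09). CAD was at −0.38 (SE 0.128, interval −0.72 to −0.03, adjusted p = 0.14). DUT and RRM2 pointed the other way, at 0.18 (interval 0.01 to 0.36, adjusted p = 0.146) and 0.20 (interval 0.00 to 0.40, adjusted p = 0.154). The second RRM2 probe set, 209773_s_at, tested alone, was at −0.26 (limma adjusted p = 0.188). The direction for RRM2 therefore depends on the probe set. TYMS and TK1 were nearest to equal, at −0.08 (interval −0.32 to 0.15, adjusted p = 0.555) and 0.03 (interval −0.20 to 0.25, adjusted p = 0.862). With an intensity trend in eBayes, 3 of the 9 passed, namely RRM1, GART and DUT, and with the stricter filter RRM1 passed. In the order of levels, wild type was lowest by mean for all 9 genes and stood apart from both resistant variants beyond the threshold for every gene but PPAT. BR100 was highest by mean for 6 genes and BR200 for RRM2, TK1 and DUT, without passing the threshold. For RRM2 that order holds for the probe set standing for the gene, while 209773_s_at was highest in BR100.

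The 9 genes were covered by 30 probe sets, and 25 of them passed the filter. Tested 1 by 1, 18 were higher and 1 lower in BR100, and 18 were higher and 1 lower in BR200, where 32.0% of all probe sets kept were called higher and 30.9% lower in BR100 (62.8% in either direction), and 29.7% and 29.8% in BR200 (59.6%). Between BR200 and BR100 none of the 25 passed with limma, where 5.70% of all probe sets passed (3.96% higher and 1.74% lower). At an unadjusted p under 0.05 there were 7. The share of all probe sets at that level was not counted, so the 7 are not read as a result about these genes. TYMS probe sets ranged widely. The probe set 1554696_s_at read 4.42 and 3.24 in wild type and 9.88 to 10.19 on the resistant arrays. It met the filter of 4 only with the resistant arrays, so its calls support nothing and no size is given. At 217684_at, TYMS values stayed between 2.85 and 4.56 on all arrays. That probe set reached the filter of 4 on the 2 BR200 arrays alone, so its place among the 18 higher in BR200 supports nothing. RRM1 201476_s_at rose by 3.64 and 3.20, close to the 3.15 and 2.79 of the probe set standing for the gene, and the second TK1 probe set rose by 2.70 and 2.91.

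GART was the gene whose 7 tested probe sets disagreed in direction. Those at 212378_at, 212379_at and 217445_s_at gave changes of 0.94, 0.86 and 1.41 in BR100 and 0.61, 0.69 and 1.28 in BR200, of which 0.69 did not pass. GART 230766_at went the other way, from 7.52 and 7.09 in wild type to 5.73 and 5.67 in BR100 and 5.62 and 4.89 in BR200. It fell by 1.60 in BR100 (SE 0.179, limma adjusted p = 0.00289) and by 2.05 in BR200 (SE 0.179, adjusted p = 0.00177). The other 3 did not pass. For PPAT, 209434_s_at did not pass either, at 0.25 and 0.14. The dim 235833_at, whose values lay between 3.87 and 5.37, was called higher in both comparisons. It met the filter only with the resistant arrays, so its place among the probe sets called higher supports nothing.

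**Figure D4:**
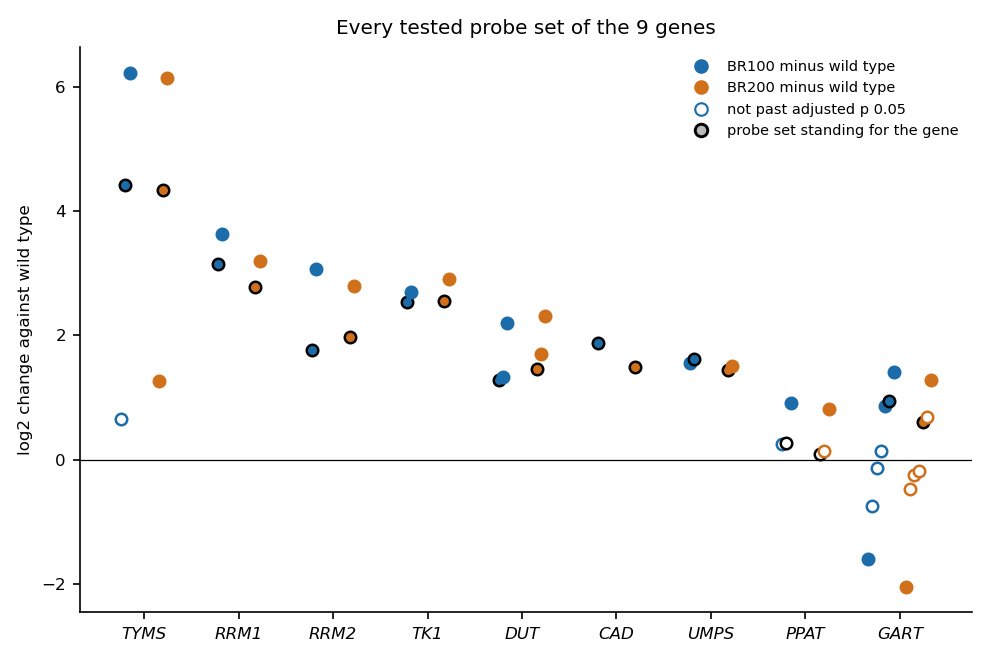
Log2 change against wild type of the 25 tested probe sets of the 9 genes, with BR100 in blue and BR200 in orange, open points for those not past the threshold and a black rim for the probe set that stands for the gene. All tested probe sets of RRM1, RRM2, TK1, DUT, CAD and UMPS lie above 0, and those of GART run from −2.05 to 1.41.

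Other genes of nucleotide metabolism were taken from 5 lists of 61 genes, of which 48 were tested. In BR100, 28 of them rose and 14 fell (median log2 change 0.54), and in BR200, 26 rose and 14 fell (median 0.42). The counts in these lists are to be read against the shares of all genes kept, 36.7% higher and 31.8% lower in BR100 and 35.4% and 31.2% in BR200, and the 14 of 48 that fell are close to that background. Of these lists, purine synthesis and salvage had the largest share of genes that rose, since 12 of 13 tested genes rose in BR100 and 11 rose with 1 lower in BR200 (medians 1.25 and 1.13). HPRT1, the salvage enzyme for hypoxanthine and guanine, rose by 2.04 and 1.82, PFAS, of the same pathway as GART, by 1.90 and 1.69, and PRPS1, which makes the sugar phosphate that PPAT uses, by 1.76 and 1.69. GMPS, which makes GMP, was the member that did not pass in BR100 (−0.018) and was lower in BR200 (−0.27). Between the resistant variants, PRPS2 and ADSS1 were higher in BR200, by 0.80 (SE 0.104, limma adjusted p = 0.026) and 0.96 (SE 0.129, adjusted p = 0.0276).

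In the deoxynucleotide list, 4 of 9 tested genes rose and 3 fell in each comparison (medians 0.046 and 0.20), which is near the share over all genes and no result about this list. DTYMK, the kinase that acts after TYMS and TK1, rose by 2.06 and 1.91, NME1, a nucleoside diphosphate kinase, by 1.86 and 1.65, and DCK, deoxycytidine kinase, by 1.37 and 1.39. The mitochondrial thymidine kinase TK2 fell by 1.50 and 1.23, opposite to cytosolic TK1. Among 6 tested pyrimidine genes, 4 rose and 1 fell in BR100, and 4 rose with none lower in BR200. CTPS2 and CTPS1, which make CTP, rose by 2.02 and 1.38 in BR100 and by 1.73 and 1.07 in BR200. DHODH, the mitochondrial enzyme between CAD and UMPS, read 4.92 and 3.28 in wild type and 5.27 to 5.67 on the resistant arrays. It met the filter only with the resistant arrays. Its place among the genes that rose therefore supports nothing, and no size is given.

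In the folate list, 4 of 7 tested genes rose and 3 fell in each comparison. MTHFD1, the cytosolic enzyme that supplies formyl groups to purine synthesis, rose by 3.09 and 2.97 (SE 0.0887, limma adjusted p = 0.0001 and 0.000138), and GGH, a folate hydrolase, by 1.50 and 1.76. The mitochondrial enzymes MTHFD2 and SHMT2 fell by 1.90 and 1.87 in BR100 and by 2.09 and 2.09 in BR200. Among 13 tested genes of nucleotide breakdown and sanitation, 4 rose and 7 fell in BR100, and 3 rose and 7 fell in BR200 (medians −0.25 and −0.24). NUDT1 and DCTPP1, which clear oxidised or unusual triphosphates, rose by 3.22 and 1.95 in BR100 and by 3.12 and 1.93 in BR200. UPP1, uridine phosphorylase, was at −1.91 and −2.27, both past the threshold. TYMP, thymidine phosphorylase, read 5.48 and 4.58 in wild type and 2.99 to 3.39 on the resistant arrays. It passed the filter through wild type alone, so its place among the genes that fell was set by the filter and no size is given. SAMHD1, which destroys deoxynucleotides, was lower by 0.84 in BR100 (SE 0.0767, adjusted p = 0.00107) and by 0.24 in BR200 (adjusted p = 0.0466), and was higher in BR200 than in BR100 by 0.60 (adjusted p = 0.0257). GDA and DPYD, a guanine and a pyrimidine breakdown gene, were each lower in BR200 than in BR100 by 1.24 (adjusted p = 0.00743 and 0.0373).

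**Figure D5:**
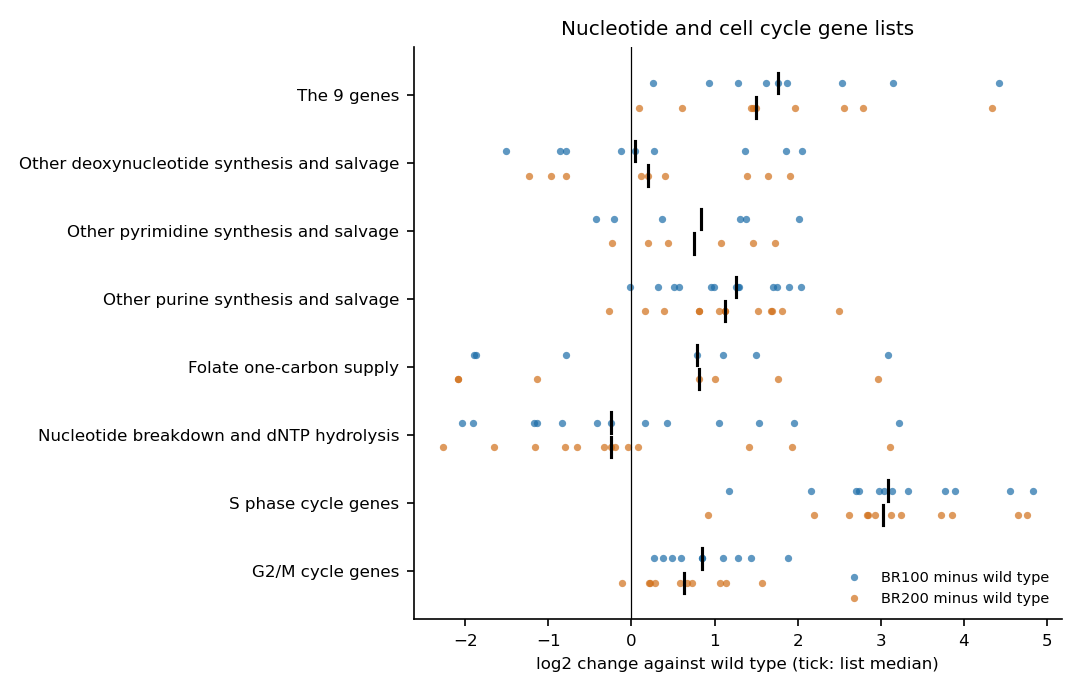
Log2 change against wild type of each tested gene (points, BR100 in blue and BR200 in orange) in the nucleotide and cell cycle lists, with a tick at the list median. S phase genes have medians of 3.09 and 3.03, the 9 genes 1.76 and 1.50, and breakdown genes −0.25 and −0.24.

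Cell cycle genes and RNA quality moved with the variants, and their part in these results was not tested. All 12 S phase genes listed (the MCM helicase, PCNA, CDC6, CDT1, CDC45 and GINS genes) rose in both resistant variants, with median changes of 3.09 and 3.03, and their mean level was 7.79 and 7.86 on the wild type arrays and 10.89 to 11.12 on the resistant arrays. Of 10 G2/M genes, 10 rose in BR100 and 6 in BR200, with smaller medians of 0.85 and 0.63. Both cell cycle counts stand against the 36.7% of all genes kept that were called higher in BR100 and 35.4% in BR200. The largest G2/M changes were those of CDC20 (1.89 and 1.57), MKI67 (1.43 and 0.73), BUB1 (1.28 and 1.14) and AURKB (1.10 and 1.06). Between the resistant variants, 2 of the 10 were called lower in BR200, where 4.23% of all genes kept were. They were MKI67 (−0.70, limma adjusted p = 0.0438) and AURKA (−0.39, adjusted p = 0.0396). The gap between 3' and 5' probe sets of ACTB, which widens with degraded or shortened RNA, was 4.22 and 2.99 in wild type, 3.03 and 1.86 in BR100, and 3.24 and 1.76 in BR200. It also moved with the kit. Kit differences were small for the 9 probe sets standing for the genes, which differed between kits by −0.43 (GART) to 0.31 (UMPS), Express minus One-Cycle, and changes against wild type had the same sign on both kits for all 9. Larger kit differences were found for GART 217445_s_at (−3.01), RRM1 201476_s_at (−1.57) and GART 212379_at (−1.54). Of 10 colon epithelial markers, 7 were above the filter, among them EPCAM and KRT18, while CDX1, CDX2 and CDH17 were under it on all arrays. Of these 7, 3 were lower and none higher in both resistant variants. Of all genes kept, 31.8% were lower in BR100 and 31.2% in BR200, so that count is not read as a result about these markers. The 3 were VIL1 (log2 change −1.85 in BR100 and −1.75 in BR200), CDH1 (−0.70 and −0.48) and KRT20 (−0.55 and −0.56). Their part in the results was not tested either. Markers of other cells were mostly at or near the lowest value of 2.23, with 1 of 6 fibroblast, 2 of 6 blood cell and 0 of 4 endothelial genes above the filter. The blood cell genes were LYZ, at 14.34 to 14.84 on every array, and CD14, which was higher in BR200 than in wild type by 1.05 (limma adjusted p = 0.0013) and than in BR100 by 0.78 (adjusted p = 0.0253), while PTPRC and CD3E were at the lowest value.

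For each gene, the genes whose 6 centred values lay closest were found by root mean square difference. TYMS had few neighbours. Only 5 genes lay within 0.25, the nearest being ACAT2 (0.126), PIR (0.176) and MCM5 (0.195). Closest to RRM1 were CENPO (0.0651), RDM1 (0.0728) and DSCC1 (0.0945), and closest to RRM2 were STMN1 (0.0706), IDH2 (0.0805) and POLQ (0.0821). TK1 lay nearest to ALG10, TMEM106C and NUP37, DUT to LIN52, SLC12A2 and FAHD2A, and CAD to RAD54B, APEH and FAM200C. UMPS lay nearest to MRPS9, PXMP2 and MRPL9, and GART to MEST, IVNS1ABP and IDH3A. PPAT, whose values hardly moved, had 2554 genes within 0.25, led by CLTC, SON and WDR26. These distances rest on 6 arrays of 3 variants.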

How the data were processed

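The authors deposited log2 expression, 1 value per probe set of an Affymetrix array, made with GCRMA per the submitters' processing notes (version not given in the sources used here). GCRMA corrects for background and normalizes across arrays. Its lowest value, 2.23, was shared by 34.9% to 35.3% of probe sets on each array, and no detection calls were used. Precision is limited by how many arrays there are and by how far the signal exceeds background.

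Probe sets were named from the platform annotation. Of 54675, 41097 named 1 gene, 1801 several and 11777 none, and 41043 of the first kind matched a RefSeq gene ID with no symbol that differed. A gene was represented by its brightest probe set by mean over the 6 arrays, among those naming it alone, and kept where 2 of 6 arrays reached 4. Values were fitted with limma 3.58.1 (lmFit, eBayes, R 4.3.3) with variant and labelling kit (as a block) as factors on the 6 arrays together, two-sided, with Benjamini-Hochberg adjustment over 10370 genes. The residual degrees of freedom were 2, with a prior of 2.33. Kits pair the arrays by their labels, and deviations from the variant means correlated at 0.825 to 0.889 between variants over 19055 probe sets. Errors are limma's SEs or SDs of 2 arrays. The fit was tested on simulated data.

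All 9 genes are named whatever their values. From each other list, up to 4 called genes with the largest change against wild type, and up to 3 between the resistant variants, were named, with RRM2B, PAICS, SAMHD1, E2F1 and MYC in any case and the 3 most alike genes per member. AFMID and SON were added for their position after the data were seen, as were the other probe sets, GMPS and the marker genes. The members and lists were chosen with earlier results of these data known. Alternatives were the kit block, probe set choice, filter, scaling, variance prior, samples in the fit and each array left out. Promoter sequences are from RefSeq (GRCh38.p14); no genome build enters the deposited values.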

Additional observations from a re-analysis of the deposited data

Results flagged for a closer look

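Some small changes had opposite signs on the Express and One-Cycle arrays, with 1 array against 1 in each kit, so these differences between kits were not tested. Among the 9 genes this held for TK1 between BR200 and BR100, where the Express value exceeded the One-Cycle value by 0.17 (0.11 and −0.06). The dim GART probe set 244822_at differed by −0.96 in BR200 against wild type. Against wild type, E2F1 differed by −0.32 in BR100, AFMID by 0.42 in BR100 and SON by −0.15 in BR200. RRM2B differed by 0.15 between BR200 and BR100. None of these changes passed in the fit over both kits.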

How the results depend on the processing

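Against wild type, 8 of the 9 genes were called in BR100 under every alternative that tested all 9, except 9 with an intensity trend, and 8 in BR200 except 7 without the kit block. With probe sets averaged, the 8 were not the same genes in either comparison, since PPAT passed and GART did not. Without _s_at and _x_at probe sets all 7 testable genes passed, and RRM1 and UMPS could not be tested. Among the 7, PPAT was called through 235833_at, which met the filter only with the resistant arrays. Its place in that count therefore supports nothing. Leaving out each array in turn gave 8 to 8 genes in both comparisons, 0 to 0 between the resistant variants, and 18 to 19 (BR100), 16 to 19 (BR200) and 0 to 0 probe sets. GART reversed in BR200 when its probe sets were averaged (−0.087), and PPAT passed in both comparisons when averaged (0.48 and 0.35). The PPAT average includes 235833_at. PPAT also passed in both comparisons without _s_at and _x_at probe sets, where 235833_at stood for the gene, so no size is given. Between BR200 and BR100, 3 genes passed with an intensity trend and 1 with the stricter filter, and 1 probe set with the trend, against 0. Without _s_at and _x_at names, 10 of 14 probe sets passed in BR100 and 10 of 14 in BR200, against 19 of 25, a count lowered by the fewer tested. Without the kit block, which pairs the arrays, 8, 7 and 0 genes and 15, 15 and 0 probe sets passed, and calls over all genes went from 7102 to 4387 (BR100), from 6901 to 4100 (BR200) and from 1102 to 112 (BR200 against BR100). That last count was 1745 with the trend, 15 with no filter, 61 with the 4 arrays compared or without either wild type array, and 0 without any array of BR100 or BR200, so a count of 0 there says little. Its other causes were not tested.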

Other observations

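Among regulators of S phase transcription, 14 E2F, RB family and MYC family genes were tested. In BR100, 7 rose and 1 fell, and in BR200, 8 rose and 2 fell (median log2 changes 0.36 and 0.33). Of all genes kept, 36.7% rose and 31.8% fell in BR100, and 35.4% and 31.2% in BR200. MYCL was the gene that fell in BR100, and MYCL and E2F5 (−0.33) fell in BR200. RBL1, the p107 pocket protein, rose by 2.74 and 2.78, and E2F8, a repressor E2F, by 2.35 and 2.00. E2F7 rose by 1.11 in BR100 and 1.03 in BR200, and E2F2 by 1.03 and 1.09. E2F1 read 5.69 and 5.66 in wild type, 5.66 and 5.96 in BR100, and 6.30 and 6.44 in BR200. It was at 0.14 in BR100 (limma adjusted p = 0.277) and rose by 0.69 in BR200 (adjusted p = 0.00442), and was higher in BR200 than in BR100 by 0.55 (adjusted p = 0.0452). MYC rose by 0.62 in BR100 (adjusted p = 0.0042) and was at 0.20 in BR200 (adjusted p = 0.111), and the difference between them, −0.42, did not pass (adjusted p = 0.0606). MYCL, counted among those that fell, read 6.33 and 6.34 in wild type and 3.04 to 3.42 on the resistant arrays, and passed the filter through wild type alone, so no size is given.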
